A study of Saccharomyces cerevisiae with 27 samples.

Results

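The heat response of the yeast strain that carries the C719A form of alanyl-tRNA synthetase was measured by RNA sequencing, by setting 3 libraries of cells held for 2 h at 37 °C against 3 libraries of the same strain at 0 h, before the shift from 30 °C. These 6 libraries were chosen by their strain and time labels from the 27 libraries of the series. All strains were haploid derivatives of BY4741 in which the chromosomal ALA1 gene, which encodes alanyl-tRNA synthetase (AlaRS), was deleted (ala1Δ) and replaced by a plasmid copy on pRS315, which carries LEU2. The C719A copy is defective in editing, the G906D copy is defective in aminoacylation, and WT carries the normal enzyme. Cultures were in log phase in YPD, a rich glucose medium. The 21 other libraries are C719A at 1 h, and G906D and WT at 0, 1 and 2 h, with 3 biological replicates in each of the 9 groups. The labels name strains and no separate plasmid-shuffled lines, so strain and line cannot be told apart in these libraries. The paper reports that strains from a separate shuffling gave the same heat sensitivity and GCN4 reporter results, which are not RNA measurements. The series as analysed here holds no library kept at 30 °C for 2 h, so the shift in temperature and 2 h of further growth cannot be told apart either.

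AlaRS attaches alanine to its tRNA and, through a separate editing site, removes serine or glycine that was attached by mistake. Without editing, serine enters proteins at alanine positions. In budding yeast, a shift to 37 °C acts through the heat shock factor Hsf1, which drives chaperone genes, and through Msn2 and Msn4, which drive a broad set of stress genes, while genes for making ribosomes are turned down for a time. Amino acid shortage and uncharged tRNA act through the kinase Gcn2 and the transcription factor Gcn4, which drives genes of amino acid synthesis.

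The libraries held 14471528 to 17011382 counted reads at 2 h and 17426746 to 19216603 at 0 h in C719A, within the range of 14471528 to 23057641 over all 27. In a principal component analysis the first component took 60.6% of the variance, and the C719A libraries lay at 14.11, 16.95 and 13.13 on it at 2 h, against -36.98, -24 and -33.13 at 0 h. Replicate B at 0 h stood apart from A and C: chi-square per degree of freedom over genes was 43.6 and 52 for its pairs and 15 for A with C, against 6.93 to 9.84 among the 2 h libraries. The labels tie no library to a culture that was sampled at both times.

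The cell type went against the strain name. BY4741 is known as a MATa strain, in which a-specific genes are expressed and alpha-specific genes are silent. Here the summed level of the alpha-specific genes was above that of the a-specific genes. Per gene length, MF(ALPHA)1, which encodes the alpha-factor pheromone, averaged 874 FPKM (the authors' length-scaled expression value) at 2 h and 4352 FPKM at 0 h, and STE3, the receptor for a-factor, averaged 132 and 227 FPKM. STE2, the receptor for alpha-factor that a cells carry, averaged 56.9 FPKM at 2 h and 11.4 FPKM at 0 h. FPKM of the other a-specific genes is not given here. In C719A the 4 alpha-specific genes summed to 815 to 1038 CPM (read counts scaled to a common library size) at 2 h and 4630 to 6120 CPM at 0 h. The 7 a-specific genes summed to 209 to 275 and 81.7 to 91.8 CPM. At 0 h the alpha-specific sums were 2156 to 2588 CPM in WT and 10614 to 10862 CPM in G906D. The a-specific sums were 63.8 to 73.8 and 69.9 to 85.9 CPM. These sums are not scaled by gene length. URA3 and MET17, which are deleted in BY4741, had too few counts to be tested, whereas HIS3, part of which is deleted in BY4741, had 104, 107 and 106 CPM at 2 h, against 54.6, 61.3 and 59.4 CPM at 0 h (1.81-fold higher, edgeR adjusted p = 1.05e-07). A bulk library cannot tell fewer cells of a kind from less RNA per cell, and the share of any minor cell population was not tested.

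The sequences that some of the results refer to are shown here. They are windows before the start codon of genes with large changes in their groups, read from RefSeq's R64 assembly on the strand of the gene, with the motif named for each in capitals.
In HSP26 (chrII:381530-381609, plus strand) the capitals mark the stress element, AGGGG on either strand, which Msn2 and Msn4 bind.
HSP26: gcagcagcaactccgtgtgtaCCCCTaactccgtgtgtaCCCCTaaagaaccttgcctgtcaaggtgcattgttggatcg
In HBT1 (chrIV:60651-60730, minus strand) and TMA10 (chrXII:783686-783765, minus strand), the stress genes with the largest rises in their list, the capitals mark the same element.
HBT1: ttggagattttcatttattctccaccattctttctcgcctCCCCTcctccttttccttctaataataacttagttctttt
TMA10: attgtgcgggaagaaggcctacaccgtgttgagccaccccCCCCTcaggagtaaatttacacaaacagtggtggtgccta
In PRM1 (chrXIV:110707-110786, plus strand), FUS1 (chrIII:71589-71668, plus strand) and KAR4 (chrIII:27744-27823, plus strand) they mark the pheromone response element, TGAAACA on either strand, bound by Ste12.
PRM1: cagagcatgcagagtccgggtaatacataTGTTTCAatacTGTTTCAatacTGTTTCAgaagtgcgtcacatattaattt
FUS1: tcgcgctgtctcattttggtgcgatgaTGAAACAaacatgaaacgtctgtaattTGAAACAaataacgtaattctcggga
KAR4: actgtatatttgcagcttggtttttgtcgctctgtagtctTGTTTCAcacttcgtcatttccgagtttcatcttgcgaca
In ARG3 (chrX:268321-268400, plus strand) they mark the Gcn4 site TGACTC, and in MUP1 (chrVII:598947-599026, plus strand) the Met31/32 core TGTGGC, on either strand.
ARG3: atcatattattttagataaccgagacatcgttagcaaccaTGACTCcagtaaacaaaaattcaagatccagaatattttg
MUP1: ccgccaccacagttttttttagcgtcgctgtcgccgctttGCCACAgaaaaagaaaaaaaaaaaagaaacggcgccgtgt
In SNU13 (chrV:101705-101784, plus strand) and GAR1 (chrVIII:283399-283478, minus strand), ribosome biogenesis genes with large falls, they mark the PAC element GATGAG and the ribosomal RNA processing element (RRPE) AAAAATTT, on either strand.
SNU13: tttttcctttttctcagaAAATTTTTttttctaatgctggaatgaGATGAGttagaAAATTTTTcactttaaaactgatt
GAR1: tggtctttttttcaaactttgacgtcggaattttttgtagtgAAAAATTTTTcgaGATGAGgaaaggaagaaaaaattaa

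Most of the C719A transcriptome differed between 2 h at 37 °C and 0 h. With edgeR's quasi-likelihood test and Benjamini-Hochberg adjustment over 6386 genes, 2225 genes (34.8%) were higher at 2 h and 2063 genes (32.3%) were lower at an adjusted p under 0.05. At least 2-fold changes were fewer, with 356 genes (5.57%) higher and 672 genes (10.5%) lower. The 2 h and 0 h libraries did not overlap for 4836 genes (75.7%), so a list in which about that share of the genes is separate does not stand out by it. The groups that rose were pheromone response genes, a-specific genes, Msn2/4 stress genes, and genes of arginine, lysine, histidine and sulfur amino acid synthesis, the glyoxylate cycle and peroxisomes. Genes of ribosomes, glycolysis and histones fell, and more cytosolic chaperone genes fell than rose.

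These directions are set against the middle of all genes, whose median log2 change was 0.03. With scaling by library size alone that median moved by 0.32, and the calls became 3439 higher and 1222 lower, which is 73.8% higher against 51.9% in the counts above. Where this scaling turned a list round or moved its counts by over 1.5 times and by more than 1 gene, both sets of counts are given. Ribosomal protein genes took 87034 to 95136 CPM in all at 2 h and 215521 to 264732 CPM at 0 h. Without 0 h replicate B, 454 genes were at least 2-fold higher and 722 at least 2-fold lower.

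**Figure D1:**
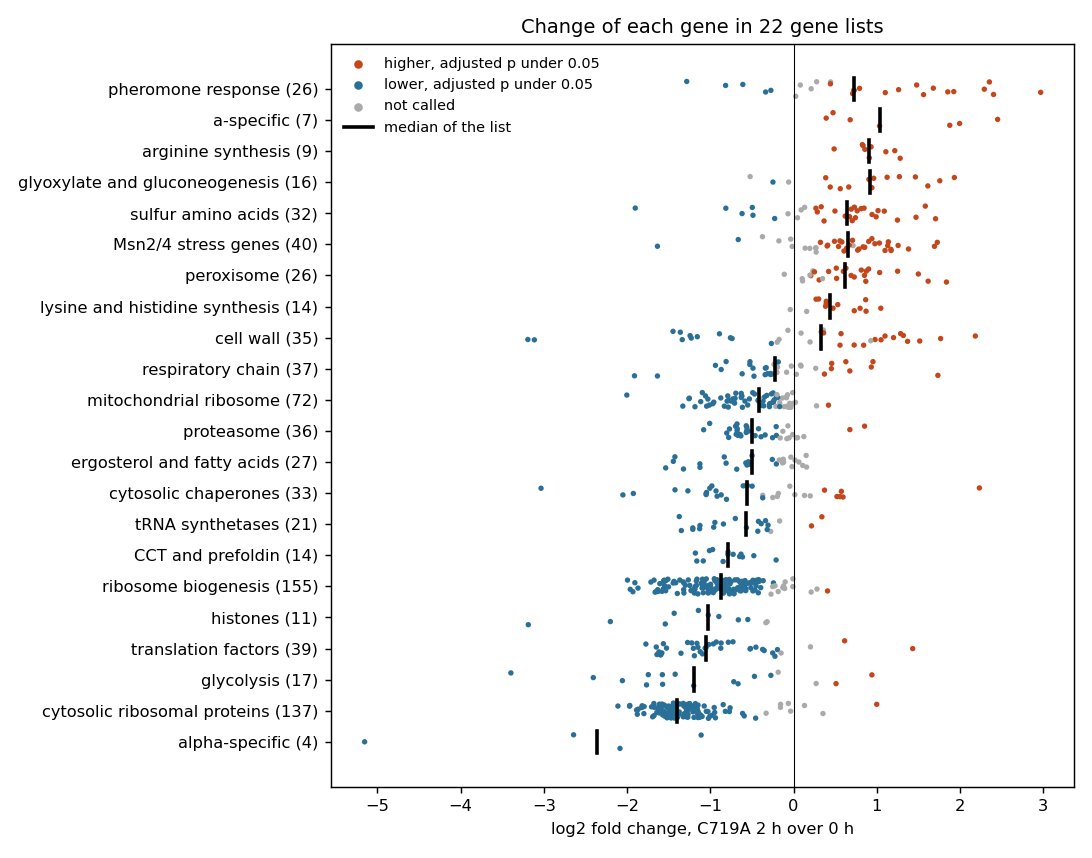
Each point is the log2 fold change of 1 gene between C719A at 2 h and at 0 h (horizontal axis), for 22 gene lists with the number of tested genes in brackets; orange points were higher and blue points lower at an adjusted p under 0.05, and black bars are list medians. The medians run down the page to -1.40 for cytosolic ribosomal proteins and -2.36 for the 4 alpha-specific genes, while the pheromone response list has a median of 0.73.

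Pheromone response genes were 4 of the 10 largest rises under the naming rule. PRM1 (YNL279W), which encodes a membrane protein of mating cell fusion, had 469, 477 and 631 CPM at 2 h, against 61.9, 70.4 and 68.8 CPM at 0 h, a 7.83-fold rise (log2 2.97 ± 0.16 SE, edgeR adjusted p = 3.12e-13). FUS1, another cell fusion gene, had 455, 447 and 600.4 CPM at 2 h, against 97.5, 88.2 and 98.0 CPM at 0 h (5.29-fold). KAR4, a transcription factor of mating and nuclear fusion, had 349, 346 and 425 CPM against 70.6, 71.9 and 76.6 CPM (5.11-fold). All 2 h libraries lay above all 0 h libraries for these genes, and replicate C was the highest at 2 h in each. AGA1, the anchor subunit of the agglutinin of a cells, which pheromone also induces, averaged 792 ± 94 CPM at 2 h and 162 ± 20 CPM at 0 h (SD, n = 3 each; 4.90-fold).

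Of the 26 pheromone response genes tested, 16 rose and 5 fell, with a median log2 change of 0.73 against 0.03 for all genes; with library size alone 21 rose and 2 fell. The risers included the transcription factor STE12 (log2 1.48), the signal regulator SST2 (1.26) and the fusion and agglutination genes FIG2 (1.85) and FUS2 (1.10). The fallers included the beta and gamma subunits of the G protein that starts the signal from the receptor. STE4, the beta subunit, had 83.6, 88.2 and 91.7 CPM at 2 h, against 218, 208 and 215 CPM at 0 h. The gamma subunit STE18 had a log2 change of -0.34, a call lost with library size alone (-0.01, edgeR adjusted p = 0.9). GPA1, the alpha subunit, did not pass the test (log2 0.03, edgeR adjusted p = 0.831).

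All 7 a-specific genes rose and all 4 alpha-specific genes fell. MFA1, a precursor of a-factor, had 49.6, 56.0 and 78.4 CPM at 2 h, against 12.1, 11.2 and 10.2 CPM at 0 h (5.48-fold), and STE2 had 55.2, 61.3 and 80.5 CPM, against 18.2, 17.9 and 13.3 CPM (3.99-fold). MFA2, the other a-factor gene, had the smallest rise of the 7 (log2 0.39, edgeR adjusted p = 0.0436) and lost its call under 6 alternatives, among them RLE size factors (0.0632), without 0 h replicate A (0.236) and without 2 h replicate C (0.282). MF(ALPHA)2, the minor alpha-factor gene, had 37.5, 30.4 and 41.9 CPM at 2 h, against 1441, 1065 and 1400 CPM at 0 h, a 35.6-fold fall and the largest of any gene named by the rule. MF(ALPHA)1 fell 6.25-fold, the alpha-agglutinin gene SAG1 fell 4.24-fold and STE3 fell 2.16-fold. The alpha-factor genes are related in sequence, and whether reads were shared between them was not tested.

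Daughter cell genes rose, and cell wall genes went both ways. CTS1, the endochitinase that separates daughter from mother, had 1499, 1701 and 1567 CPM at 2 h, against 208, 211 and 205 CPM at 0 h (7.64-fold), and DSE1 and DSE2, which act at the same step, rose 7.14-fold and 4.83-fold. Of 35 cell wall genes, 16 rose and 12 fell (median log2 0.33), where 34.8% of all genes rose and 32.3% fell. The share of the list that fell is near that of all genes, so the genes named next are single cases. SLT2, the kinase at the end of the cell integrity pathway, had 353, 376 and 408 CPM at 2 h, against 126, 143 and 128 CPM at 0 h (2.86-fold, edgeR adjusted p = 1.33e-13). Rises were also seen for RLM1, the transcription factor below it (log2 1.10), PIR3, a wall glycoprotein (4.55-fold), and PRM5 (3.41-fold). TIR1 and TIP1, cold-inducible mannoproteins of the wall, went the other way with falls of 9.14-fold and 8.66-fold.

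**Figure D2:**
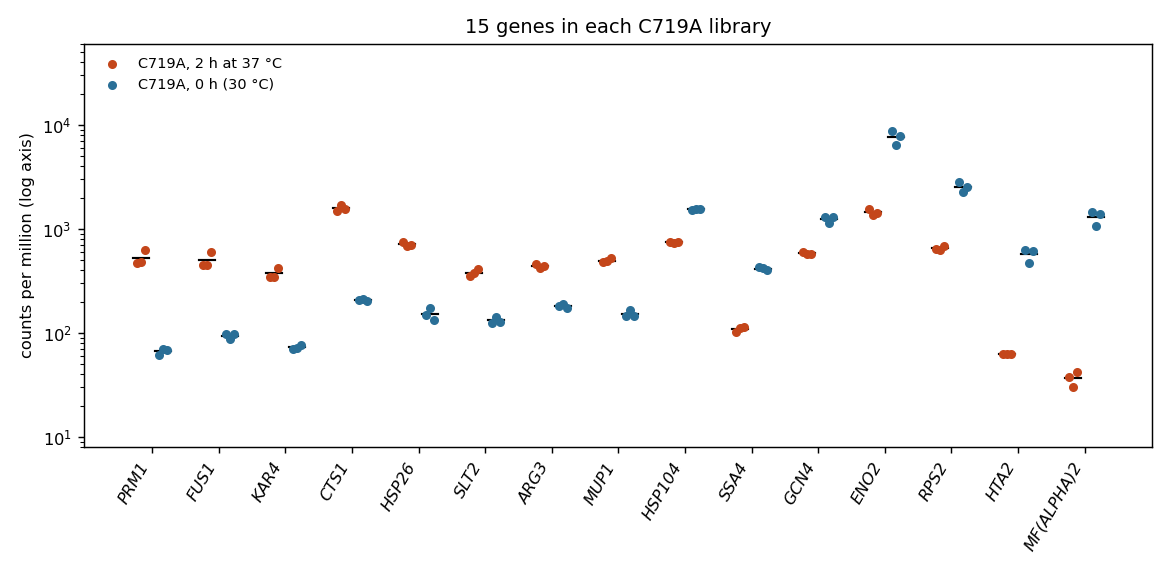
CPM (log axis) of 15 genes in each C719A library, with the 2 h libraries in orange left of the 0 h libraries in blue; points are libraries and black bars are means of 3. No gene shown has overlapping groups; PRM1 to MUP1 are higher at 2 h and HSP104 to MF(ALPHA)2 are lower.

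More cytosolic chaperone genes were lower than higher at 2 h. Of the 33 tested, 6 rose and 19 fell, with a median log2 change of -0.55. With library size alone 10 rose and 14 fell, with a median of -0.23. For 29 of the 33 the 2 h and 0 h libraries did not overlap. HSP26, a small heat shock protein that binds unfolded proteins, was the exception in size, with 749, 686 and 694 CPM at 2 h, against 149, 172 and 132 CPM at 0 h (4.70-fold, edgeR adjusted p = 1.47e-09). HSP104, the disaggregase, had 752, 738 and 748 CPM at 2 h, against 1507, 1572 and 1556 CPM at 0 h, a 2.07-fold fall (log2 -1.05 ± 0.17 SE, edgeR adjusted p = 9.41e-06). SSA4, the heat-inducible Hsp70, had 102, 112 and 114 CPM at 2 h, against 427, 417 and 402 CPM at 0 h (3.80-fold lower). The Hsp90 genes differed: HSC82 fell (log2 -0.50; -0.17 and edgeR adjusted p = 0.255 with library size alone), and HSP82 had a log2 change of 0.02 (edgeR adjusted p = 0.929).

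The other falls among chaperones spanned several classes, among them the Hsp70 SSA2 (log2 -1.01), its J-protein partner YDJ1 (-1.27), the small heat shock protein HSP42 (-0.87) and the Hsp90 co-chaperone SBA1 (-0.92). ZUO1, the J-protein bound to ribosomes, had 319.7, 293 and 307 CPM at 2 h, against 1418, 1121 and 1269 CPM at 0 h (4.14-fold lower), and SSB2, the ribosome-bound Hsp70, fell 2.68-fold. HSP30, a plasma membrane protein induced by stress, fell 8.19-fold. SSA, SSB and HSC82/HSP82 copies are alike enough for reads to be shared. HSF1 itself had 149, 154 and 158 CPM at 2 h, against 100.3, 109 and 106 CPM at 0 h (1.46-fold higher). All 14 CCT and prefoldin genes, which fold actin and tubulin, fell (median log2 -0.79). Of 22 endoplasmic reticulum folding genes 10 fell and 5 rose, and with library size alone these counts turned round to 5 and 10.

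The 1 h libraries lay between for chaperones and beyond for stress genes. At 1 h the median log2 change from the same 0 h libraries was -0.37 for chaperones and 1.24 for the Msn2/4 stress genes, against -0.55 and 0.65 at 2 h. The summed level of the 33 chaperone genes was 15602 to 17032 CPM at 0 h, 11108 to 13579 CPM at 1 h and 10024 to 10116 CPM at 2 h. That of the 40 stress genes was 21927 to 30612 CPM at 0 h, 56587 to 74694 CPM at 1 h and 39014 to 40878 CPM at 2 h. The difference between 1 h and 2 h was not tested.

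Of the 40 Msn2/4 stress genes, 28 rose and 2 fell at 2 h. HBT1, which acts in mating projections, had 1225, 1363 and 1072 CPM at 2 h, against 284, 568 and 253 CPM at 0 h (3.31-fold, edgeR adjusted p = 0.000673). TMA10, a protein associated with ribosomes, had 2906, 2930 and 2868 CPM, against 814, 1151 and 725 CPM (3.24-fold). HSP12, a membrane-stabilising protein, had 3901, 3781 and 3426 CPM at 2 h, against 1281, 2163 and 1203 CPM at 0 h (2.39-fold, edgeR adjusted p = 0.0262). In all 3 genes 0 h replicate B was the highest of its group, and without that library the list's median was 0.80. The calls of HSP12 and PHM7, a phosphate-regulated membrane protein (2.61-fold), were lost without 0 h replicate A (edgeR adjusted p = 0.0864 and 0.0835) and without 0 h replicate C (0.0922 and 0.0935). HSP12 also lost its call without 2 h replicate A or B (edgeR adjusted p = 0.0540 and 0.0507), and PHM7 without 2 h replicate B (0.0624). CTT1, the cytosolic catalase, overlapped between groups, with 711, 727 and 593 CPM at 2 h and 298, 599 and 281 CPM at 0 h.

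Ribosome genes fell almost throughout. Of 137 cytosolic ribosomal protein genes, 129 fell, 1 rose and 118 fell at least 2-fold (median log2 -1.40). RPS2, a protein of the small subunit, had 637, 628 and 692 CPM at 2 h, against 2837, 2272 and 2557 CPM at 0 h (3.92-fold lower, edgeR adjusted p = 5.11e-09). The riser, RPL22A, had 15.9, 14.9 and 15.5 CPM at 2 h, against 8.31, 5.49 and 9.41 CPM at 0 h. Most of these genes come in near-identical pairs, between which the authors' counting may have split reads. Of 155 ribosome biogenesis genes 142 fell and 1 rose (median -0.88; 108 and 6 with library size alone), among them SNU13 and GAR1, which belong to the small RNA-protein complexes that modify ribosomal RNA, by 3.99-fold and 3.90-fold. DBP6, a helicase of large-subunit assembly, was the riser (1.33-fold).

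Other genes of the translation machinery fell with them. Of 39 translation factor genes 35 fell, led by EFT1 (3.42-fold), which encodes elongation factor 2 and has an identical second copy, and STM1, a ribosome-binding protein (3.14-fold). Of 20 RNA polymerase I and III genes, 16 fell and none rose (13 and 2 with library size alone). Among 21 aminoacyl-tRNA synthetase genes 17 fell and 2 rose (11 and 2 with library size alone): GUS1, for glutamate, had 385, 362 and 373 CPM at 2 h, against 1029, 899.9 and 973 CPM at 0 h, while ILS1, for isoleucine, had 331, 320.5 and 317 CPM, against 265, 254 and 246 CPM, a call lost without 0 h replicate C (edgeR adjusted p = 0.0558).

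ALA1, the gene that carries the mutation, had 4360, 3844 and 4213 CPM at 2 h, against 5807, 4820 and 5624 CPM at 0 h, with no overlap (1.31-fold lower, edgeR adjusted p = 0.0313). Its log2 change was -0.39, and -0.06 (adjusted p = 0.724) with library size alone. The call was also lost when any 1 of 4 libraries was left out, with adjusted p between 0.0568 and 0.105. LEU2, the plasmid marker, had 1557, 1227 and 1445 CPM at 2 h, against 3573, 2518 and 4248 CPM at 0 h (2.44-fold lower). LEU2 and HIS3 together summed to 2579 to 4308 CPM at 0 h in C719A, against 639 to 809 CPM in WT and 997 to 1079 CPM in G906D. That difference between the strains was not tested. The counts cannot show the C719A base change itself.

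Genes of arginine, lysine and histidine and sulfur amino acid synthesis rose, while GCN4 mRNA fell and the other amino acid lists were mixed. GCN4 had 606, 576 and 578 CPM at 2 h, against 1305, 1152 and 1313 CPM at 0 h (2.14-fold lower, edgeR adjusted p = 4.37e-07), and GCN2, the kinase above it, did not pass the test (log2 0.04, adjusted p = 0.616). Gcn4 is known to be controlled mainly at translation, which these counts do not measure. All 9 arginine genes rose, with a median log2 change of 0.91. ARG3, which encodes ornithine carbamoyltransferase, had 462, 417 and 440.1 CPM at 2 h, against 181, 189.9 and 172 CPM at 0 h (2.43-fold). At 1 h the median of the 9 was 0.22 above 0 h.

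Lysine and histidine genes followed, with 12 of 14 higher and none lower (median 0.43), among them HIS4, an enzyme of several steps of histidine synthesis (2.07-fold). Of 32 sulfur amino acid genes 22 rose and 6 fell (median 0.65; 24 and 3 with library size alone). MUP1, the high-affinity methionine permease, had 477, 489.8 and 524 CPM at 2 h, against 145, 166 and 146 CPM at 0 h (3.27-fold), and MET4, the transcription factor of the pathway, rose 1.80-fold. SAH1, which breaks down S-adenosylhomocysteine, fell 3.74-fold. Of 14 aromatic amino acid genes 5 rose, TRP1 of tryptophan synthesis most (log2 1.38), and 2 fell (median 0.17), which is near the share of all genes that rose; with library size alone 11 rose and none fell. Of 11 branched-chain genes 3 rose and 1 fell, and with library size alone 7 and 0. Of 14 genes of alanine, serine and glycine metabolism 5 rose and 4 fell, where 34.8% of all genes rose and 32.3% fell. Both shares are near those of all genes, so the genes named next are single cases. With library size alone 8 rose and 2 fell. The alanine transaminase ALT1 rose 1.69-fold. SER3, for the first step of serine synthesis, had 54.2, 55.5 and 56.7 CPM at 2 h, against 154, 112 and 138 CPM at 0 h (2.43-fold lower). SER33, its isozyme for the same step, did not pass the test (log2 0.05, edgeR adjusted p = 0.656).

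In carbon metabolism, glycolytic genes fell and genes used for growth on acetate and fatty acids rose. Of 17 glycolytic genes 13 fell and 2 rose, with a median log2 change of -1.20. TDH2, one of the near-identical glyceraldehyde-3-phosphate dehydrogenase genes, had 354, 304 and 334 CPM at 2 h, against 3858, 2837 and 3746 CPM at 0 h (10.5-fold lower), and ENO2, the main enolase, had 1550, 1352 and 1423 CPM, against 8741, 6344 and 7835 CPM (5.30-fold lower). Of 16 glyoxylate and gluconeogenesis genes 13 rose and 1 fell (median 0.92), and 20 of 26 peroxisome genes rose and none fell (median 0.61). CIT2, the peroxisomal citrate synthase, rose 3.06-fold, and POT1, the thiolase of fatty acid oxidation, rose 3.58-fold. PDH1, which acts on propionate, had 200, 175 and 175 CPM at 2 h, against 20.1, 34.5 and 21.6 CPM at 0 h (7.18-fold).

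Glucose transport and respiration were mixed. HXT1, a low-affinity hexose transporter, had 1981, 2835 and 2497 CPM at 2 h, against 619, 769.9 and 541 CPM at 0 h (3.79-fold), and HXT6, a high-affinity transporter almost identical to HXT7, fell 6.69-fold. MIG1, the glucose repressor, rose 2.57-fold, and HAP4, the activating subunit of the regulator of respiratory genes, had 116, 73.0 and 81.1 CPM, against 342, 313 and 360.2 CPM (3.76-fold lower). Of 37 respiratory chain genes 18 fell and 8 rose, and with library size alone 7 fell and 14 rose. Of 72 mitochondrial ribosomal protein genes 52 fell and 1 rose (median -0.42), and with library size alone 30 fell and 17 rose (median -0.09). In the citrate cycle 12 of 20 genes rose and 5 fell (14 and 2 with library size alone), and IDH2, a subunit of isocitrate dehydrogenase, had 152, 129 and 137 CPM at 2 h, against 367, 381 and 422 CPM at 0 h.

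Among the remaining lists, 25 of 36 proteasome and ubiquitin genes fell and 2 rose (median -0.50). With library size alone 18 fell and 10 rose (median -0.17). The 2 risers in the first count were RPN4, the transcription factor of proteasome genes (1.60-fold), and UBI4, polyubiquitin (1.81-fold). Of 11 histone genes 9 fell and none rose, HTA2 most, with 62.3, 62.2 and 63.0 CPM at 2 h, against 623, 467 and 619 CPM at 0 h (9.11-fold lower; HTA1 is a near copy). RNR1, a ribonucleotide reductase subunit needed in S phase, fell 4.19-fold, and the G1 cyclin CLN2 fell 2.11-fold. Of 27 ergosterol and fatty acid genes 16 fell and none rose, led by FAS2 (2.90-fold), and with library size alone 13 fell and 9 rose. Of 28 antioxidant genes 14 fell and 7 rose (8 and 9 with library size alone), with the cytosolic superoxide dismutase SOD1 2.58-fold lower. Of the ribosome quality control genes, RQC2 fell 1.59-fold, a call lost with library size alone (log2 -0.34, edgeR adjusted p = 0.0692) and with limma on FPKM (0.0893 and 0.0903), and RQC1 and RKR1 (LTN1) rose 1.23-fold and 1.33-fold.

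Gene length differed between the genes that rose and those that fell, which is given with no test. The median coding span of the coding genes was 1443 bases for those at least 2-fold higher, 771 bases for those at least 2-fold lower and 1209 bases for all 5825 with an upstream window. Without ribosomal proteins of the cytosol and mitochondria the 3 medians were 1443, 792 and 1251 bases. Over the 1170 shortest genes the median log2 change was -0.32, and over the 1163 longest it was 0.23. In the WT strain the corresponding medians were -0.12 and -0.01, and in G906D -0.23 and 0.14. The part of gene length in the results was not tested.

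The motifs in the windows above were counted in the 400 bases from base 500 to base 101 before each start codon, in all 5825 tested coding genes that have such a window; no motif's letters are contained in another's. The stress element was in 38.1% of the windows of the 307 genes at least 2-fold higher, 26.9% of those of the 579 genes at least 2-fold lower and 29.6% of all windows, and in 34 of the 40 stress genes. The pheromone element was in 14.7%, 8.64% and 9.61%, and in 17 of the 26 pheromone response genes. The Gcn4 site was in 18.6%, 7.77% and 11%, and in 8 of the 9 arginine genes. The Met31/32 core was in 18.6%, 11.7% and 12.2%, and in 18 of the 32 sulfur genes.

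On the side of the falls, the PAC element was in 16.9% of windows of genes at least 2-fold higher, 29.5% of those at least 2-fold lower and 23.3% of all, and RRPE was in 10.4%, 31.6% and 17.9%. PAC was in 99 and RRPE in 118 of the 155 ribosome biogenesis genes; RRPE overlaps its own reverse complement, as in the GAR1 window. Heat shock elements, searched as 3 adjoining 5-base NGAAN units in alternating orientation, were in 0.651%, 2.25% and 1.36%, and in 10 of the 33 chaperone genes. HSP26 has none of this strict form in its window. A match is a string of letters and was not tested for binding.

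**Figure D3:**
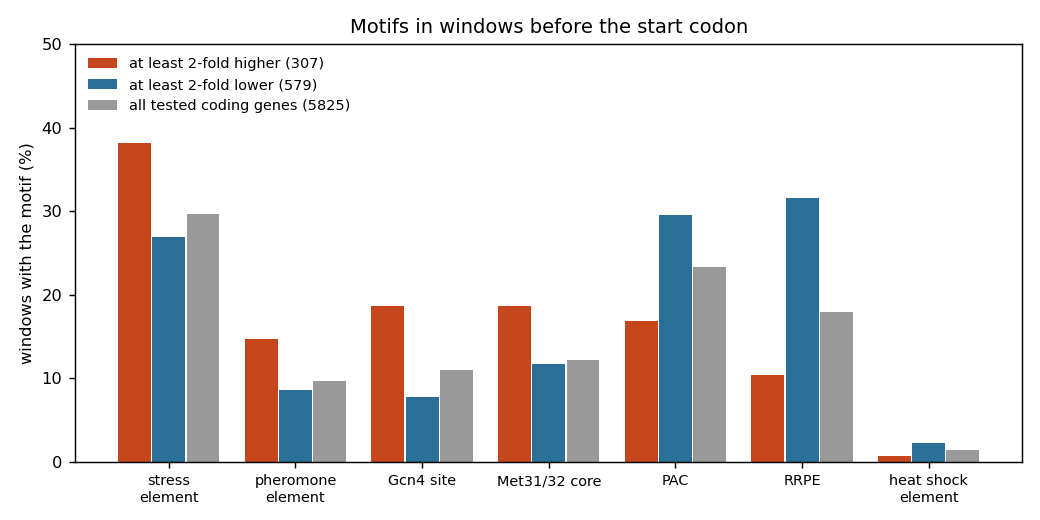
Share of upstream windows (vertical axis, percent) that hold each motif, for coding genes at least 2-fold higher in C719A at 2 h (orange), at least 2-fold lower (blue) and all tested coding genes (grey). The stress element, pheromone element, Gcn4 site and Met31/32 core are most frequent among genes that were higher, and PAC and RRPE among genes that were lower.

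The response of C719A was set against that of WT by testing the difference of the 2 log2 changes, each within its own strain. By edgeR's interaction test 1185 genes (18.6%) had a higher response in C719A and 1160 genes (18.2%) a lower one. Of the 26 pheromone genes 17 responded higher than in WT and 1 lower. PRM1 averaged 526 ± 91 CPM at 2 h and 67.1 ± 4.5 CPM at 0 h in C719A (SD, n = 3 each), and 23.0 ± 2.1 and 23.0 ± 4.1 CPM in WT, a difference of 2.97 ± 0.22 SE in log2 change (edgeR adjusted p = 2.79e-09). For KAR4 the difference was 2.52 and for SLT2 1.24. The alpha-specific genes had a median log2 change of -2.36 in C719A and -2.38 in WT, and none of the 4 differences passed the test.

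Chaperone genes fell less in C719A than in WT: the medians were -0.55 and -1.40, and 19 of 33 genes had a higher response and 3 a lower one. Their summed levels overlapped between the strains at 2 h and not at 0 h. The 33 genes summed to 10024 to 10116 CPM in C719A and 9492 to 10124 CPM in WT at 2 h, and to 15602 to 17032 CPM in C719A and 25662 to 32022 CPM in WT at 0 h. HSP104 averaged 746 ± 7.2 CPM at 2 h and 1545 ± 34 CPM at 0 h in C719A, against 1154 ± 140 and 5293 ± 740 CPM in WT, and the difference in log2 change was 1.15 (edgeR adjusted p = 0.000652). ZPR1, a zinc finger chaperone of elongation factor 1A, had a difference of 2.44.

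Ribosomal protein genes also fell less than in WT, with medians of -1.40 and -2.05, 89 of 137 genes higher in response and none lower. They summed to 87034 to 95136 CPM at 2 h in C719A and 31555 to 44629 CPM in WT. The reverse held for the mitochondrial ribosome, where the medians were -0.42 and 0.52, and 67 of 72 genes had a lower response in C719A and none a higher one. Of the 40 stress genes 23 had a lower response and 1 a higher one (medians 0.65 and 1.51). Among the glyoxylate and gluconeogenesis genes 12 of 16 had a lower response, led by ADY2, an acetate transporter, with a difference of -2.64. In the arginine list 6 of 9 genes responded higher in C719A, and in the lysine and histidine list 12 of 14.

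Of the genes with the largest differences by the naming rule, PMA1, the plasma membrane proton pump, averaged 3355 ± 140 CPM at 2 h and 2331 ± 180 CPM at 0 h in C719A, against 1513 ± 280 and 5194 ± 1600 CPM in WT. TPO2, a polyamine transporter, and YRO2, a membrane protein related to HSP30, had differences of 2.32 and 2.23 from WT. GND2, of the pentose phosphate pathway, averaged 130.4 ± 7.9 and 114 ± 19 CPM in C719A, against 461 ± 160 and 74 ± 23 CPM in WT, a difference of -2.45. STL1, a glycerol transporter (-2.45), TKL2, a transketolase (-2.44), PHM7 (-2.70) and GRE1 (-2.73) also had a lower response. STL1 lost this call without C719A 0 h replicate B (edgeR adjusted p = 0.0685).

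**Figure D4:**
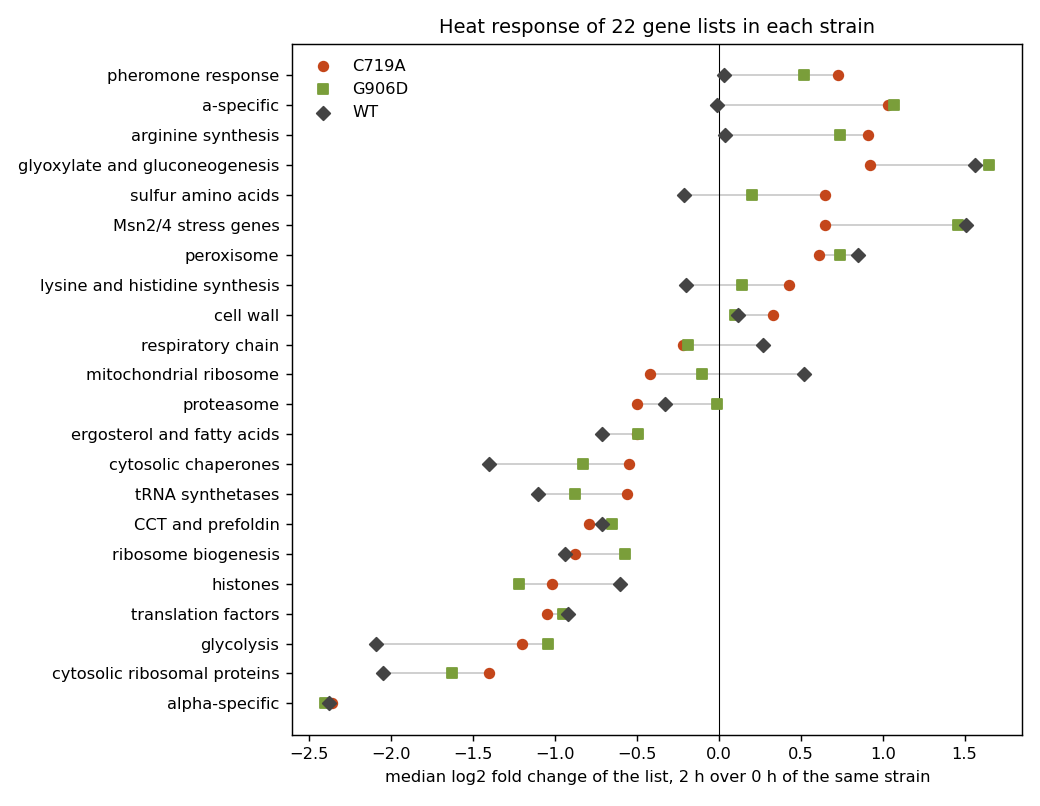
Median log2 fold change of each of 22 gene lists between 2 h and 0 h of the same strain (horizontal axis), for C719A (circles), G906D (squares) and WT (diamonds). The chaperone median is -0.55 in C719A, -0.83 in G906D and -1.40 in WT, and that of the Msn2/4 stress genes is 0.65, 1.46 and 1.51.

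Against G906D, the aminoacylation mutant, 464 genes (7.27%) were higher in C719A and 646 genes (10.1%) lower in response by edgeR's interaction test, with the same C719A libraries as in the comparison with WT. With library size alone these became 183 and 1359. The 1110 calls here and 2345 against WT became 1988 and 2024 when only the groups compared were fitted, so the gap between these counts depends on the fit. None of the 7 a-specific genes passed this test, and 9 of 26 pheromone genes responded higher in C719A. The arginine list rose in both mutants, with medians of 0.91 in C719A and 0.74 in G906D. Of its 9 genes 2 responded higher in C719A and 2 lower. For lysine and histidine the medians were 0.43 and 0.14, with 3 of 14 genes higher and none lower. HSP12 averaged 3703 ± 250 CPM at 2 h and 1549 ± 530 CPM at 0 h in C719A, against 7294 ± 440 and 359 ± 130 CPM in G906D, a difference of -3.09 (edgeR adjusted p = 0.00412). HSP26 rose more in G906D, with a difference of -1.96. HSP104 had a higher response in C719A (1.42), as did CTS1 (1.50), PDH1 (1.67) and ARN2, a siderophore transporter (1.55). Of the 40 stress genes 23 had a lower response in C719A than in G906D, and none a higher one. The same held for 25 of the 36 proteasome and ubiquitin genes, again with none higher.

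**Figure D5:**
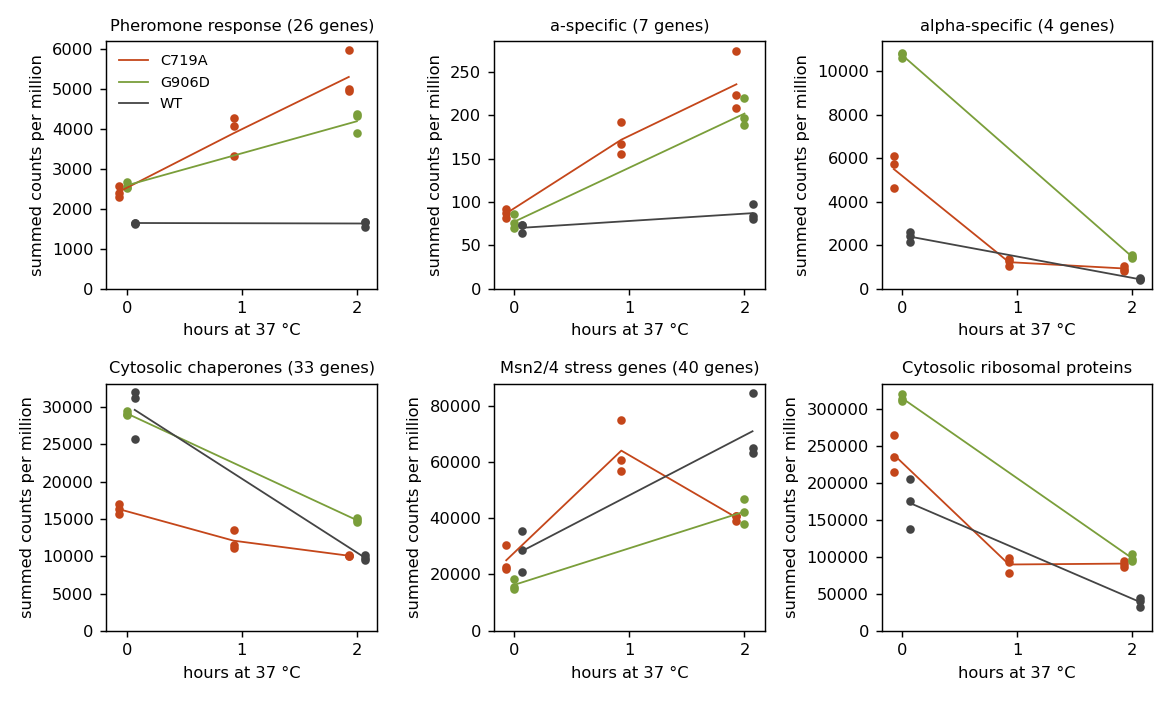
Summed CPM (vertical axes) of 6 gene lists by hours at 37 °C; points are libraries, lines join the means of 3, and 1 h is shown for C719A only. Pheromone response genes sum to 4949 to 5981 in C719A at 2 h, above 3893 to 4381 in G906D and 1543 to 1678 in WT, while the chaperone sums of C719A and WT meet at 2 h.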

How the data were processed

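Total RNA was enriched for mRNA with oligo(dT), and cDNA made with random hexamers was sequenced on Illumina instruments; the protocol names no strand marking. Per the labels, the submitters' processing notes name TopHat2 and Bowtie2; versions, the counting tool and the genome build are not given in the sources used here. The authors deposited raw read counts per gene and FPKM values of 27 libraries; FPKM implied the R64 gene length within 3 bases for 95.2% of 5324 genes. In each deposited table, 4 lines hold no gene here. Of 7122 gene IDs, 6045 matched R64 locus tags, which gave names and sequences.

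Counts were analysed with edgeR 4.0.16 (R 4.3.3): filterByExpr, TMM scaling, 9 group means over all 27 libraries, glmQLFit and glmQLFTest, Benjamini-Hochberg adjustment, threshold 0.05. Printed CPM values are TMM-scaled. SE is the log2 change over the root of F. The self-test was run on simulated data. Alternatives were RLE factors, library size alone, TMM without ribosomal proteins, other filters, DESeq2 1.42.0, limma 3.58.1 on log2(FPKM + 1) and log2(FPKM + 0.1), replicate blocks, the compared groups alone and each library left out. With 3 against 3 an exact permutation test cannot go below 0.1, so none is given. The p-values set each change against a spread between replicates that was estimated over all 9 groups. Without strand, overlapping and antisense genes share reads.

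Named genes are the 10 largest rises and 10 falls (coding, named, mean log2 CPM at least 5, adjusted p under 0.05, no overlap), up to 4 called genes in each list's leading direction and 2 in the other, all of the study, regulator, mating-type and genotype lists, and the 6 and 4 largest differences each way from WT and G906D. Members and lists were chosen with earlier results of these data known; PRM1, FUS1, KAR4, ARG3, MUP1, SNU13 and GAR1 windows, list members outside these rules and the lists of daughter cell, carnitine and vacuolar ATPase genes were chosen after values were seen.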

Additional observations from a re-analysis of the deposited data

Results flagged for a closer look

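Responses that differed between strains were counted by edgeR's interaction test. The response of C719A differed from that of WT for 2345 genes and from that of G906D for 1110 genes, with the same C719A libraries in both.

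Set against WT, the log2 response was higher in C719A for PRM1 (2.97), KAR4 (2.52), ZPR1 (2.44), TPO2 (2.32), PMA1 (2.31), YRO2 (2.23), HSP104 (1.15), RQC2 (0.94) and HSF1 (0.43). It was lower for GRE1 (-2.73), PHM7 (-2.70), ADY2 (-2.64), STL1 (-2.45), GND2 (-2.45), TKL2 (-2.44) and RKR1 (-0.44). TPO2, STL1 and GND2 did not pass the test within C719A itself.

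Set against G906D, it was higher for PDH1 (1.67), ARN2 (1.55), CTS1 (1.50) and HSP104 (1.42), and lower for STL1 (-3.19), HSP12 (-3.09), TKL2 (-2.83), PHM7 (-2.67) and RQC2 (-0.73). RQC2 therefore lay above WT and below G906D in its response. PHM7 against G906D lost its call without C719A 0 h replicate B (edgeR adjusted p = 0.0514).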

How the results depend on the processing

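The count of 4288 genes called at 2 h against 0 h stayed within 1.5 times under every alternative run, and leaving out 1 library gave 3886 to 4195; for the difference from WT it gave 2016 to 2641 and for that from G906D 812 to 1029. Scaling moved the split. With library size alone, limma on log2(FPKM + 1) and limma on log2(FPKM + 0.1), the genes higher at 2 h numbered 3439, 3450 and 3426, the genes lower 1222, 1220 and 1216, those at least 2-fold higher 874, 789 and 873, and those at least 2-fold lower 359, 337 and 362; none of these 3 scales by TMM. Against G906D the same settings gave 183, 186 and 189 higher and 1359, 1303 and 1339 lower, and fitting only the compared groups gave 1988 calls, 771 higher and 1217 lower, and 2024 calls against WT; the cause was not tested. Under those 3 scalings, in that order, list medians turned positive for mitochondrial chaperones (0.089, 0.085, 0.087), endoplasmic reticulum folding (0.135, 0.132, 0.134), antioxidants (0.010, 0.013, 0.014), branched-chain synthesis (0.311, 0.322, 0.325), respiration (0.10, 0.101, 0.101) and cyclins (0.004, 0.005, 0.005), as did BAT1 (0.063, 0.065, 0.066), ARO2 (0.026 each), MDH3 (0.077, 0.076, 0.076), ROX1 (0.290, 0.291, 0.293), ASH1 (0.013 each) and YRO2 (0.008, 0.006, 0.006). The branched-chain median ran between -0.085 and 0.152 with 1 library left out, highest without C719A 0 h replicate C. Of 234 named genes called, 210 kept call and sign under every alternative that tested them. For pairing, each C719A library was taken as its deviation from the group mean in log2 CPM over 5589 genes. Between 2 h and 0 h, deviations with the same replicate letter correlated at 0.0921 (A), 0.368 (B) and 0.115 (C). Those with different letters ran from -0.273 to 0.183, the highest being 2 h replicate C with 0 h replicate A. Deviations within a group cancel out, so these values are not independent, and they are not correlations of whole libraries. The letters were not taken as pairs, and whether they mark shared cultures was not tested. With a replicate block over all strains 4266 genes were called, and within each strain 4256.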

Other observations

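Groups that were listed after their values were seen also moved in C719A. Of 10 daughter cell separation genes 8 rose and 1 fell (median log2 0.90, against 0.05 in WT and -0.12 in G906D). CTS1 (2.93), DSE1 (2.83), DSE2 (2.27) and DSE3 (1.77) were the largest, and ASH1, the daughter-specific repressor, had 89.0, 78.3 and 79.3 CPM at 2 h, against 109, 103 and 94.1 CPM at 0 h, a call lost under library size alone and when any 1 of 4 libraries was left out. Response was higher than in WT for 6 of the 10 and higher than in G906D for 9.

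Of 9 propionate and carnitine genes 8 rose at least 2-fold (median 1.67, against 2.95 in WT). YAT2, a carnitine acetyltransferase, had 656, 743 and 616 CPM at 2 h, against 193, 241 and 197 CPM at 0 h, and ATO2 rose 3.82-fold. Of 14 vacuolar ATPase genes 12 fell and 1 rose (median -0.95). VMA4 had 41.9, 40.9 and 44.1 CPM at 2 h, against 205, 159.7 and 171 CPM at 0 h, and STV1, the subunit of the Golgi form, was the riser (1.45-fold).

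CTR1, the copper transporter, had 21.0, 15.9 and 16.5 CPM at 2 h, against 54.3, 50.6 and 69.4 CPM at 0 h in C719A, and its log2 change was -1.71 in C719A and 0.93 in WT (difference -2.64, edgeR adjusted p = 4.4e-08).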
